A study of Rattus norvegicus with 18 samples.

Results

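Livers of rats given carbon tetrachloride (CCl4) were set directly against livers of rats given N-nitrosodiethylamine (DEN) after 28 days of dosing, with no control array in the difference. The comparison uses 6 of the 18 arrays of the series, chosen by their sample titles: 3 of CCl4 and 3 of DEN at day 28. The animals were male F344/NSlc rats bought at 5 weeks of age and kept for a week on basal diet before dosing. Each array is a separate sample by its label and is taken here as 1 rat. The CCl4 dose was 100 mg/kg, dissolved in corn oil, and the DEN dose 4 mg/kg, dissolved in saline, both daily by gavage at 5 mL/kg, so compound, dose and vehicle cannot be told apart in any difference below. The 3 control arrays of day 28 show where each gene lies without either compound: they are vehicle rats by their titles and untreated rats by the protocol text. All 18 arrays also enter the estimate of spread behind each standard error and adjusted p-value, and the choice of 1 probe per gene. The other 9 arrays are the same 3 groups at day 84, and the series asks which liver genes are lowered by hepatocarcinogens that are not genotoxic.

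As background, CCl4 is turned by the cytochrome P450 Cyp2e1, chiefly in hepatocytes around the central vein, into a radical that attacks membrane lipids and kills these cells, and repeated dosing gives regeneration and scarring. DEN is also activated by P450 enzymes in hepatocytes, but its product alkylates DNA, which stabilises the transcription factor p53 and raises its target genes. Both compounds cause liver tumours in rats. Albumin (Alb), the plasma protein that defines hepatocytes, was well above background on all 6 arrays.

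Total liver RNA carried a Cy3 label and was read on one-colour Agilent arrays. Values are log2 signals relative to the 75th percentile of each array, so 0 is the level of that percentile and each unit is a doubling. Differences are CCl4 minus DEN with their standard error (SE), and a gene was called when its p-value from the limma model, adjusted over all 10307 genes tested, was under 0.05. Between 47.5% and 55.2% of probes were well above background on an array. The number of arrays, 3 a group, limits the precision, and nothing in the labels says more of the rats than that each array is a separate sample.

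Before the results, 3 features of these arrays need stating. CCl4 replicate 2 stood apart: the first principal component of the 6 arrays, with 80.7% of the variance, placed the CCl4 arrays at -32.6, -64.6 and -21.9 and the DEN arrays at 34.1, 40.9 and 44.1. Of the called genes, 75.4% had CCl4 replicate 2 as the CCl4 array farthest from the DEN mean, and the median SD within a group was 0.176 with CCl4 and 0.0873 with DEN (log2). CCl4 replicate 3 was hybridised on another slide than the other 5 arrays, so some results are also given with slide as a block or without that array. The 75th percentile of the signal was 281, 325 and 274 with CCl4, against 233, 215 and 222 with DEN, while the mean log2 signal of 8 spike-in probes was 12.33, 12.35 and 12.42 with CCl4, against 12.46, 12.38 and 12.28 with DEN. Scaling to these spike-ins instead of the percentile moved the median difference of all genes to 0.36, against -0.04, and the calls to 4369 higher and 635 lower with CCl4. Every difference below is therefore relative to the 75th percentile of the array, and counts under spike-in scaling are given beside many of the lists below. Those counts are to be read beside the 4369 higher and 635 lower of all 10307 genes under that scaling.

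Of the 10307 genes tested, 4911 were called (47.6%): 2208 were higher with CCl4 than with DEN (21.4%) and 2703 lower (26.2%). The counts of list members given below are to be read beside these shares. Most differences were small, with a median size of 0.59 among called genes. Past 2-fold, 792 genes were higher and 489 lower, past 4-fold 270 were higher and 86 lower, and past 8-fold 52 were higher and 32 lower. The arrays of the groups did not overlap at 5852 genes (56.8%). Without CCl4 replicate 2 the count of calls was 3807, with slide as a block it was 5234, and with only the 6 arrays fitted it was 3622.

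The genes that rose furthest with CCl4 came from several liver processes. Cox6a2, the muscle form of a cytochrome c oxidase subunit, measured 3.32, 4.22 and 3.00 with CCl4, against -3.27, -3.23 and -2.91 with DEN, a difference of 6.65 ± 0.27 (SE, adjusted p = 4.4e-09), and its other probes were also called higher, by 3.29 and 4.08. The control arrays read -2.43, -2.14 and -2.23, so the DEN arrays lay below control and the CCl4 arrays stood far above both. Trem2, a receptor of macrophages that take up lipid and debris, measured 2.97, 3.21 and 2.44 with CCl4, against -2.29, -4.27 and -3.93 with DEN, where 1 of 3 arrays was well above background. The difference was 6.37 ± 0.78 (adjusted p = 2.76e-05), and it was 4.21 with normexp background correction. Acsm5, a mitochondrial acyl-CoA synthetase, measured 5.35, 5.33 and 5.43 with CCl4, against 0.02, -0.13 and -0.46 with DEN, a 47.2-fold rise (adjusted p = 9.42e-09). Its CCl4 arrays differed from each other by far less than they did from any DEN array.

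Spp1 (osteopontin), a secreted matrix protein of ductular cells and scar macrophages, rose by 5.10 ± 0.45, and Mmp12, the macrophage elastase, by 4.45 ± 0.56. Cdhr5, a cadherin of microvilli, rose by 4.96 ± 0.57, and Phgdh, the first enzyme of serine synthesis, by 4.34 ± 0.25. Sema3b, a secreted guidance protein, rose by 3.77 ± 0.39, Cyp2c24 by 3.69 ± 0.26, the pantetheinase Vnn1 by 3.42 ± 0.30, the protein kinase A subunit Prkar1b by 3.31 ± 0.49 and the stress transcription factor Atf3 by 3.26 ± 0.31. In each of these 9 genes all 3 CCl4 arrays lay above all 3 DEN arrays, which, with being called, was a condition for being listed. Their adjusted p-values ran up to 0.000121. Cyp2c24 and other P450 genes have near-identical relatives whose RNA may reach the same probe, and their values are uncertain in that respect.

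Some genes were well above background with CCl4 on all 3 arrays and on none with DEN, so that only a lower bound of the fold can be given. The bound sets the CCl4 mean against the dimmest signal that counts as above background on each DEN array. Acot1, an acyl-CoA thioesterase of the PPARα programme, read 4.36, 6.40 and 4.38 with CCl4, against -5.12, -4.34 and -5.21 with DEN, and was at least 438.5-fold higher with CCl4 (adjusted p = 8.03e-09). Sdcbp2 (syntenin-2), at 1.45, 1.66 and 1.66 with CCl4, was at least 39.8-fold higher, and another of its probes was higher by 2.74 (log2). Gucy2c, the intestinal guanylate cyclase receptor, was at least 13.4-fold higher, the siderophore-binding Lcn2 at least 11.5-fold, Lypd1 at least 9.81-fold and the cytokine subunit Il23a at least 6.92-fold. Control arrays were not well above background for any of these 6 genes.

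**Figure D1:**
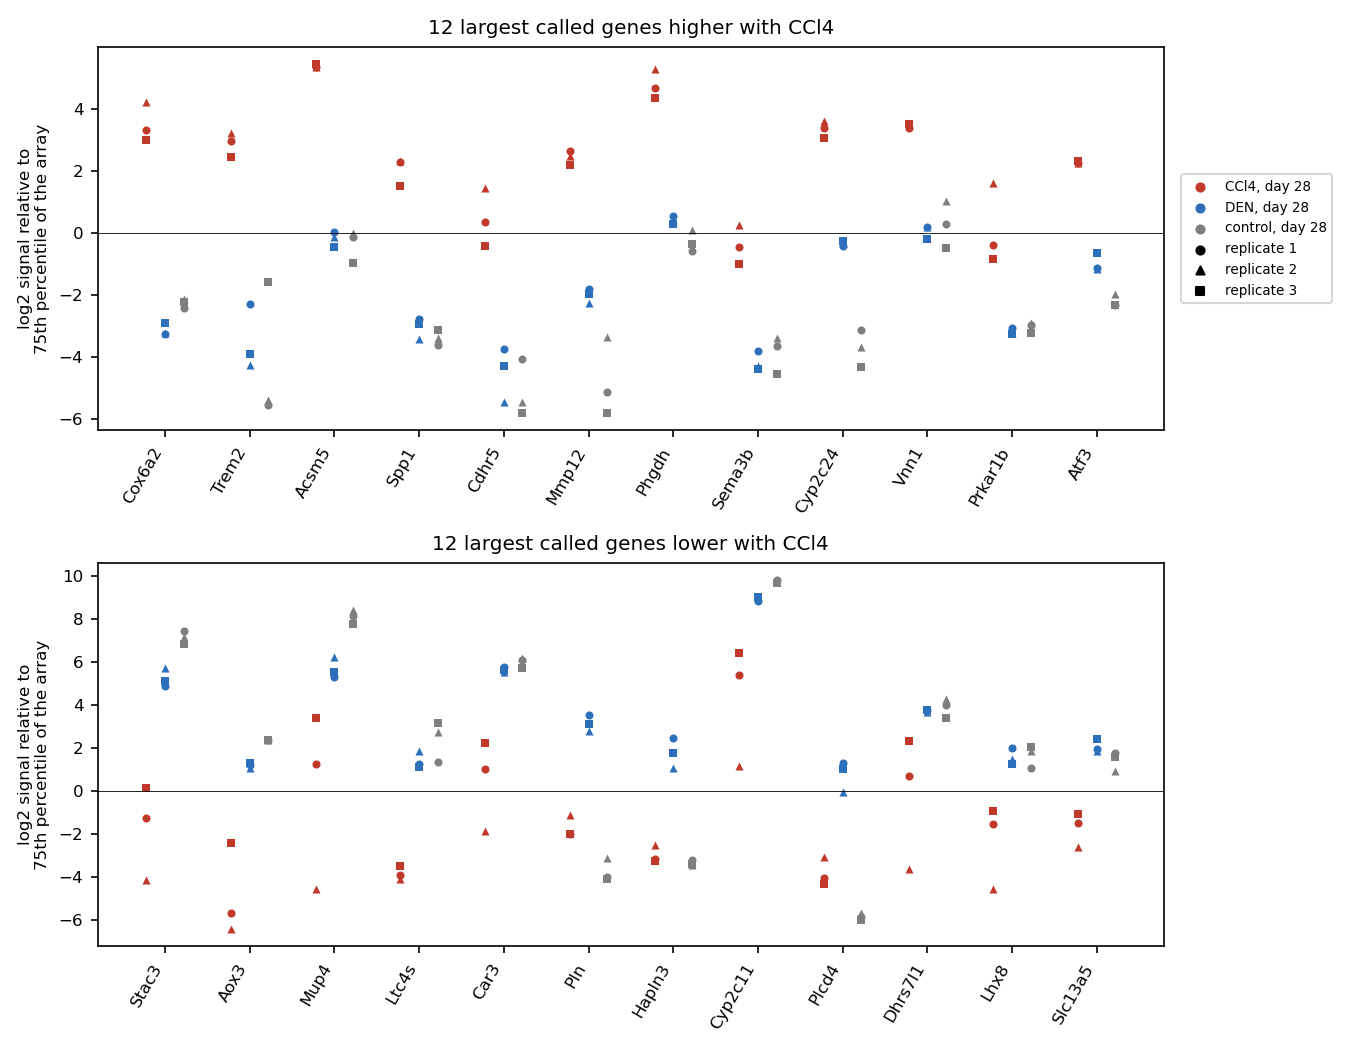
Log2 signal relative to the 75th percentile of the array (vertical axes) of the 12 largest rises (top) and 12 largest falls (bottom) with CCl4 against DEN, with 1 point per array and the marker giving the replicate number, and control arrays in grey. The genes were chosen so that the red CCl4 points lie on one side of the blue DEN points. In Cyp2c11, Mup4, Car3 and Dhrs7l1 the CCl4 triangle (replicate 2) lies far below the other CCl4 arrays.

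The largest falls differed in where the control arrays lay. In some genes DEN arrays were the nearer to control and CCl4 arrays lay far below both. Stac3, known as a part of the calcium channel complex of muscle, measured -1.25, -4.14 and 0.13 with CCl4, against 4.88, 5.70 and 5.10 with DEN and 7.41, 7.16 and 6.84 in controls. The difference was -6.98 ± 0.77 (adjusted p = 1.22e-05), and the DEN arrays were the nearer to control. Aox3, an aldehyde oxidase of liver, fell by 6.03, or by 3.22 with normexp background correction, and was well above background on 1 of 3 CCl4 arrays. Slc13a5, the citrate carrier of hepatocytes, measured -1.47, -2.61 and -1.08 with CCl4, against 1.94, 1.87 and 2.43 with DEN, a 13.9-fold fall (adjusted p = 2.15e-06), with all DEN arrays above the controls at 1.76, 0.94 and 1.61. Ltc4s, leukotriene C4 synthase, fell by 5.23 and the LIM-homeodomain gene Lhx8 by 3.91.

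In other genes DEN arrays lay far above control. Pln (phospholamban), which holds back the calcium pump of the endoplasmic reticulum, measured -1.99, -1.09 and -2.0 with CCl4, against 3.55, 2.79 and 3.13 with DEN and -4.01, -3.12 and -4.10 in controls. It was 28.8-fold lower with CCl4 than with DEN (adjusted p = 7.18e-07), yet CCl4 arrays too lay above the controls. Hapln3, a link protein of hyaluronan, measured -3.17, -2.50 and -3.26 with CCl4, against 2.46, 1.08 and 1.79 with DEN, and its controls at -3.21, -3.42 and -3.37 fell in the CCl4 range or below. Plcd4, a phospholipase C, was well above background on all 3 DEN arrays, on 1 CCl4 array and on no control, and fell by 4.58 (adjusted p = 1.69e-06), or by 2.74 with normexp background correction. Svop, Actrt3 and Kcnk4 were not well above background on any CCl4 or control array and were at least 11.8-fold, 5.81-fold and 5.48-fold lower with CCl4 than with DEN. Slc4a8, Chrdl1 and Rnase11 were likewise dim with CCl4, at bounds of at least 8.59-fold, 4.67-fold and 3.32-fold lower, but were well above background on 2 or more controls.

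Targets of p53, which halt the cell cycle, repair DNA or start cell death, were lower with CCl4 than with DEN almost throughout. Of 26 measured members, 20 were called lower and 2 higher, with a median difference of -0.55 against -0.04 over all genes. Ccng1 (cyclin G1) measured 1.74, 1.79 and 1.74 with CCl4, against 3.48, 3.28 and 3.56 with DEN and 0.91, 0.77 and 0.85 in controls. It was 3.21-fold lower with CCl4 (adjusted p = 2.3e-07), with CCl4 between control and DEN. Mdm2, the ligase that degrades p53, measured 0.00, -0.10 and 0.33 with CCl4, against 1.70, 1.38 and 1.59 with DEN, and controls lay within 0.02 of -0.34. Mgmt, which removes alkyl groups from guanine, measured 4.86, 4.59 and 4.97 with CCl4, against 6.20, 5.90 and 6.06 with DEN, a 2.38-fold fall (adjusted p = 8.13e-06). None of these groups overlapped.

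Tp53inp1, a promoter of p53-driven cell death, showed another order. It measured 0.42, 0.23 and 0.24 with CCl4, against 1.94, 1.64 and 1.98 with DEN and 1.48, 1.23 and 1.40 in controls, so CCl4 lay below control and DEN above. Phlda3, an inhibitor of Akt, fell by 1.37 ± 0.18, the pore-forming Bax by 0.69 ± 0.08, and the stress sensor Sesn2 by 1.65 ± 0.12, the last with controls above both compounds. The call of Bax was lost under spike-in scaling (-0.30, adjusted p = 0.0882). Cdkn1a (p21), the best known p53 target, has 3 probes that were all called lower but differed in size. The probe used here measured 4.74, 4.43 and 5.03 with CCl4, against 5.07, 5.07 and 5.09 with DEN. Its call (adjusted p = 0.0309) was lost without any single array other than CCl4 replicate 3, and controls lay above both compounds at 5.40, 5.32 and 5.33. The other 2 probes differed by -1.33 and -2.08, so the size of the Cdkn1a difference depends on the probe. Under spike-in scaling 10 of the 26 members were lower and 2 higher, and without CCl4 replicate 2 none was higher.

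**Figure D2:**
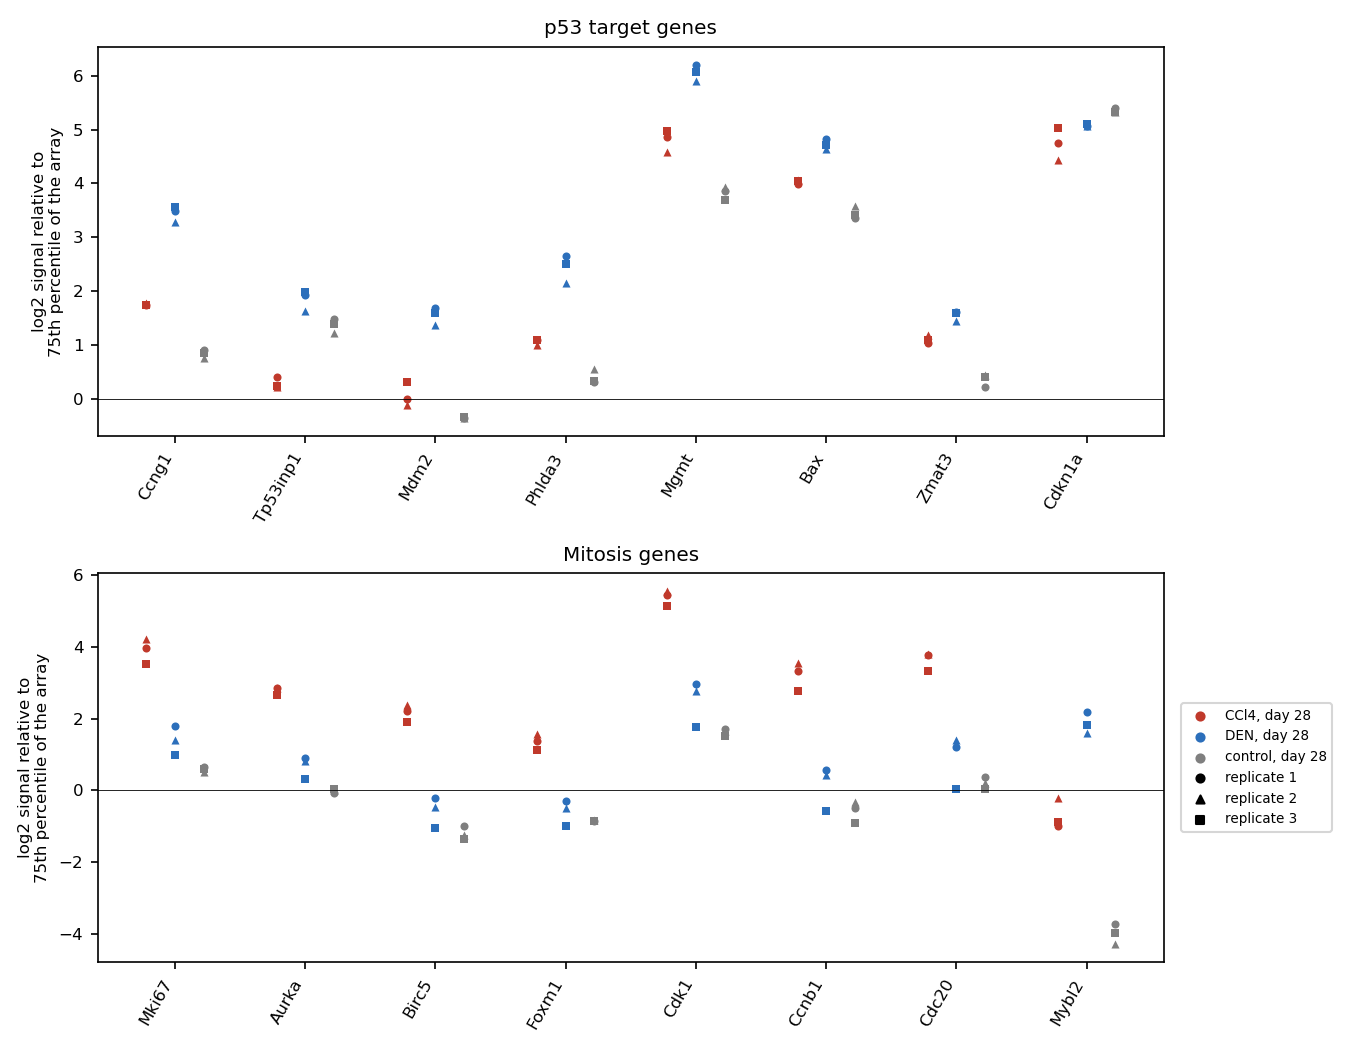
Log2 signal relative to the 75th percentile of the array for 8 p53 targets (top) and 8 mitosis genes (bottom), with 1 point per array. Ccng1 with CCl4 lies between control and DEN, Tp53inp1 with CCl4 lies below control, and Mybl2 is the only mitosis gene shown whose DEN arrays lie above its CCl4 arrays.

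Mitosis genes moved the other way and together. Of 29 measured members, 28 were called higher with CCl4, with a median difference of 2.73, and the count was the same under spike-in scaling, with slide as a block and without any single array of the comparison. Aurka, a kinase of the spindle poles, measured 2.86, 2.86 and 2.66 with CCl4, against 0.90, 0.83 and 0.30 with DEN, a 4.32-fold rise (adjusted p = 2.07e-07). Mki67, the Ki-67 protein of dividing cells, measured 3.96, 4.21 and 3.53 with CCl4, against 1.81, 1.41 and 1.0 with DEN, a 5.63-fold rise (adjusted p = 9.98e-07). Its controls at 0.65, 0.50 and 0.59 lay below both compounds. Birc5 (survivin) rose 6.69-fold, the centromere histone Cenpa 5.74-fold and Foxm1, a transcription factor of the G2 phase, 3.91-fold.

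Mybl2 (B-Myb), a transcription factor that with the MuvB complex switches on genes of the G2 phase and mitosis, was the exception. It measured -0.99, -0.20 and -0.88 with CCl4, against 2.19, 1.60 and 1.81 with DEN, and was not well above background on any control array. It was 5.89-fold lower with CCl4 (adjusted p = 1.16e-05), all 3 of its probes were lower, and CCl4 arrays too lay above the controls. Mybl2 was singled out after its value was seen. In bulk liver, more cells of a type and more RNA per cell cannot be told apart.

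The promoters of these genes are shown because mitosis genes moved together with Mybl2 against them, and many mitosis genes are known to be switched through a CCAAT box and a nearby element with the letters TTTGAA. In the 150 bases before the RefSeq start (build GRCr8), searched on both strands, 8 of the 23 measured mitosis genes with a promoter there held both CCAAT and TTTGAA, against 1.81% of the 8472 tested genes with a promoter and 2.28% of all 27457 promoters. CCAAT alone was present in 16 of the 23, and in 27.1% of the tested genes, while TTTGAA was present in 10 of the 23 and in 5.78% of the tested genes. Of 20 DNA replication genes with a promoter, 9 held CCAAT and 0 held TTTGAA. The first 4 mitosis genes of the list with both, and Mybl2, which holds neither in this window, read as follows, 5′ to 3′ and ending at the base before the start, with both motifs on either strand in capitals, and in Mki67 one match of each motif overlaps the other. These matches describe letters and not bound sites.
Mki67 (chr1:199952594-199952743, minus strand): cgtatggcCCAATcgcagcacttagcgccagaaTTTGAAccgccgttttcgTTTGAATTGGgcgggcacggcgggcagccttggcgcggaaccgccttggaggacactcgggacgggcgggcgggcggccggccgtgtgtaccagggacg
Ccnb2 (chr8:79981659-79981808, minus strand): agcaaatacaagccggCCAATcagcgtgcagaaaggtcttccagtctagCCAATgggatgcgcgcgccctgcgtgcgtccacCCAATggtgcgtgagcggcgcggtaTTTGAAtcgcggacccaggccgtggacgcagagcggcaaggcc
Cdk1 (chr20:19265143-19265292, plus strand): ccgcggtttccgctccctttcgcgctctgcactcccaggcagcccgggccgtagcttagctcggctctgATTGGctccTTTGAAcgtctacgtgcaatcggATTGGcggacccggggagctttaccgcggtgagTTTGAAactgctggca
Cdc20 (chr5:137255800-137255949, minus strand): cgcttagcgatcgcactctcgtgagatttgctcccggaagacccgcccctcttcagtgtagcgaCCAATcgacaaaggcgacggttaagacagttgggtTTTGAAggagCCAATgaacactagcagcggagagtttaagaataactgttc
Mybl2 (chr3:172124655-172124804, plus strand): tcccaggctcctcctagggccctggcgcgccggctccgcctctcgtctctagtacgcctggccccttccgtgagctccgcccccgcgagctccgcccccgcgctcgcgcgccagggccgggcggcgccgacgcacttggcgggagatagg

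The 4 genes shown with both motifs rose. Cdk1, the kinase that drives entry into mitosis, measured 5.46, 5.56 and 5.13 with CCl4, against 2.98, 2.75 and 1.76 with DEN, a 7.39-fold rise (adjusted p = 6.05e-06). Its partner cyclin Ccnb2 rose 7.60-fold (adjusted p = 6.24e-06), and Cdc20, which activates the ligase that ends mitosis, 6.70-fold (adjusted p = 8.05e-06). In Cdk1 and Cdc20 DEN replicate 3 was the lowest DEN array, and all DEN arrays stayed below all CCl4 arrays. Aurka, which holds neither motif in this window, rose as well (values above).

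Genes of DNA replication and nucleotide synthesis rose less steeply than those of mitosis. Of 25 measured members, 22 were called higher and 1 lower, with a median difference of 1.21. Mcm3, a subunit of the replicative helicase, measured 1.98, 2.73 and 1.92 with CCl4, against 0.87, 0.56 and 0.33 with DEN, a 3.09-fold rise (adjusted p = 3.69e-05). E2f1, a transcription factor of entry into S phase, rose 2.42-fold (adjusted p = 2.19e-06). Cyclin D1 (Ccnd1), which acts earlier in G1, measured 4.34, 4.78 and 4.37 with CCl4, against 4.30, 4.08 and 4.38 with DEN. These groups overlapped and the difference of 0.24 ± 0.16 did not pass (adjusted p = 0.229), while both compounds lay above the controls at 2.87, 3.49 and 3.05. Of 26 DNA repair genes 12 were higher and 7 lower, with a median difference of 0.19, and Mgmt was among those that fell, as given above.

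Genes of scar tissue were higher with CCl4. Of 22 collagens and matrix genes 16 were called higher and 2 lower, with a median difference of 1.14. Col1a1, the main collagen of scars, measured 2.80, 4.45 and 2.65 with CCl4, against 1.35, 1.13 and 0.88 with DEN, a 4.54-fold rise (adjusted p = 0.000294), and its other probes were higher by 3.68 and 3.38 (log2). CCl4 replicate 2 was the highest, and the other 2 CCl4 arrays also lay above every DEN array. Timp1, an inhibitor of matrix proteases, rose 5.90-fold (adjusted p = 5.44e-06). Of its list of 16 proteases and inhibitors 9 were higher and 3 lower, at a median of 1.07. That median rested on genes dim in 1 group. With probes dim on any of the 6 arrays left out, 13 members remained, 6 higher and 3 lower, at a median of -0.09. Lama5, a laminin chain of basement membranes, went against its list: it measured 0.31, 1.65 and -0.12 with CCl4, against 2.81, 2.27 and 2.71 with DEN and -2.01, -1.77 and -2.38 in controls, 3.94-fold lower with CCl4 than with DEN (adjusted p = 0.000353).

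Of 15 markers of stellate cells and myofibroblasts, the cells that lay down scar, 10 were higher and 1 lower. Desmin (Des) rose by 1.51 ± 0.35 (adjusted p = 0.00296). Smooth muscle actin (Acta2) measured -1.21, 0.12 and -0.70 with CCl4, against -2.35, -3.36 and -0.56 with DEN. Its groups overlapped through DEN replicate 3, and its call (adjusted p = 0.024) was lost in 7 of 21 alternatives. Among these were the fits without CCl4 replicate 2, DEN replicate 1 or DEN replicate 2, and those of only the 6 arrays or the 9 arrays of day 28. Of 11 markers of bile duct and ductular cells 6 were higher and 0 lower. Their defining keratins did not pass: Krt19 measured -0.63, 0.91 and -0.85 with CCl4, against -0.74, -0.94 and -1.07 with DEN (adjusted p = 0.167), and Krt7 and Epcam also overlapped between the groups. Krt7 was called, higher with CCl4, with slide as a block (1.53, adjusted p = 0.0138) and under spike-in scaling (1.35, adjusted p = 0.0373). Without CCl4 replicate 2, 4 of the 11 were called and the median difference was 0.70, against 1.38 with it, while with slide as a block 8 were called at a median of 1.84. Under spike-in scaling 9 of the 11 were higher and 0 lower. With probes dim on any of the 6 arrays left out, 6 ductular markers remained, 3 higher and 0 lower, at a median of 0.78.

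Macrophage genes split. Of 20 measured markers 7 were higher and 11 lower. Besides Trem2 and Spp1, Gpnmb, a glycoprotein of lipid-laden macrophages, measured 5.43, 5.05 and 4.87 with CCl4, against 3.15, 2.82 and 3.03 with DEN, a 4.34-fold rise (adjusted p = 1.19e-06). Cd14, the lipopolysaccharide co-receptor, rose 5.27-fold (adjusted p = 1.09e-06) with its DEN arrays far below control: it measured 3.40, 3.39 and 3.06 with CCl4, against 0.56, 1.13 and 0.96 with DEN and 4.25, 3.84 and 3.71 in controls. The first 2 members of the list went opposite ways. Cd68 was called higher on both probes, by 0.33 and 0.37, a call lost in 10 of 22 alternatives. Adgre1 was lower, by 0.23 to 0.85 across alternatives, with its call lost under spike-in scaling. The markers of resident Kupffer cells given next were chosen after their values were seen, and each of them fell. Timd4 and Cd163 of the same list are not given. Clec4f, a lectin of rodent Kupffer cells, measured 5.15, 4.60 and 5.19 with CCl4, against 6.84, 6.84 and 6.92 with DEN and 6.59, 6.73 and 6.97 in controls, a 3.70-fold fall (adjusted p = 0.000344). The scavenger receptor Marco fell by 2.37 ± 0.55, the secreted Cd5l by 1.96 ± 0.29 and the complement receptor Vsig4 by 1.80 ± 0.34. Under spike-in scaling 7 of the 20 markers were higher and 4 lower.

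Of 19 lymphocyte markers 6 were lower and 1 higher, beside 26.2% lower and 21.4% higher of all genes tested. With slide as a block, or without CCl4 replicate 3, 5 were higher. Under spike-in scaling 6 of the 19 were higher and 4 lower, beside 4369 higher and 635 lower of all 10307 genes. The median difference was then 0.31, against 0.36 over all genes. The 6 lower markers include the granule proteases Gzma, which fell 4.58-fold (adjusted p = 2.21e-06), and Gzmb, which fell 3.32-fold (adjusted p = 0.000289), and the pore protein Prf1, which fell 2.24-fold (adjusted p = 0.000183), all products of killer cells. Gzma measured -0.77, -0.95 and -0.25 with CCl4, against 1.45, 1.52 and 1.64 with DEN and 1.50, 1.50 and 1.79 in controls, so DEN arrays lay beside control. The T cell receptor chain Cd3e overlapped between the groups at 0.30 ± 0.50 (adjusted p = 0.649). Of 9 markers of sinusoidal endothelium 5 were lower, among them Kdr, the VEGF receptor, which fell 2.08-fold (adjusted p = 2.17e-05), and under spike-in scaling 1 of the 9 was lower. Whether shares of these cells in the tissue play a part in the other gene lists was not tested.

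**Figure D3:**
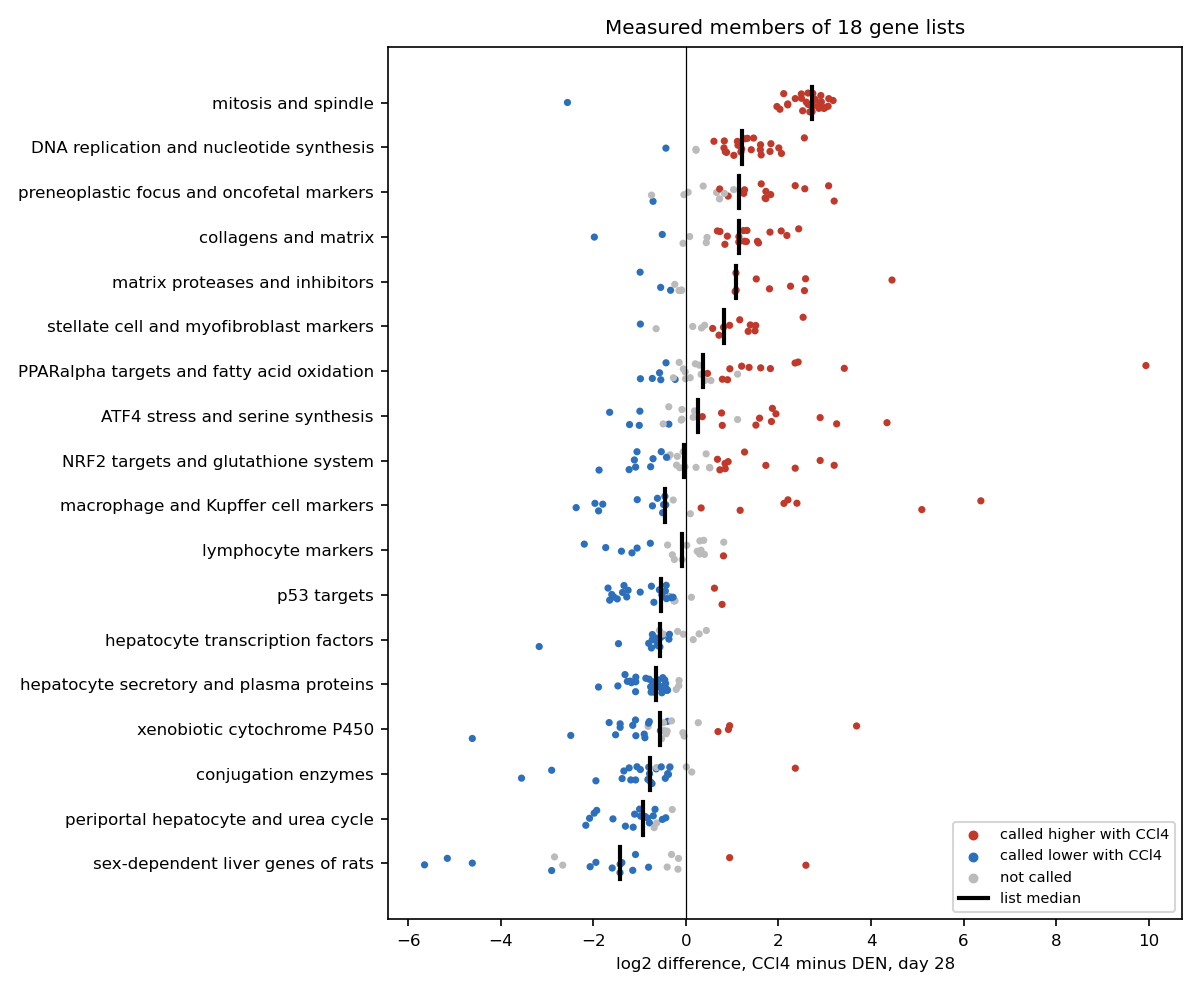
Log2 difference of CCl4 minus DEN at day 28 (horizontal axis) for every measured member of 18 gene lists (rows), with 1 point per gene and a black bar at the list median. Mitosis genes sit together near 2.73 with Mybl2 alone on the left, while p53 targets, hepatocyte genes and conjugation enzymes lie mostly to the left of 0.

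Genes of hepatocyte function were lower with CCl4. Of 34 plasma protein genes 31 were called lower and 0 higher, with a median difference of -0.64. Complement factor C6 measured 3.95, 3.63 and 3.97 with CCl4, against 5.70, 5.69 and 5.83 with DEN and 5.57, 5.40 and 6.19 in controls, a 3.70-fold fall (adjusted p = 2.1e-05), with DEN among the controls. Albumin fell 1.68-fold (adjusted p = 0.00028), at 9.38, 8.92 and 9.33 with CCl4, against 9.93, 10.02 and 9.93 with DEN, without overlap. Under spike-in scaling 14 of the 34 were lower and 0 higher. Of 4 genes that the study is known to have followed up, 3 were lower: Nfia, a nuclear factor, fell 2.74-fold (adjusted p = 5.93e-07), Proc, the anticoagulant protein C, 2.30-fold (adjusted p = 2.71e-05), and Ldlrad4, an inhibitor of TGF-β signalling, 1.68-fold (adjusted p = 3.84e-05, lost under spike-in scaling). Another probe of Nfia, at -0.27, was not called. Cdh17, a cadherin of gut and liver, measured 3.71, 3.38 and 3.91 with CCl4, against 4.51, 4.20 and 4.53 with DEN, and did not pass (adjusted p = 0.0823), but was called lower when only the 9 arrays of day 28 were fitted (adjusted p = 0.00747).

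Periportal genes and the urea cycle, which detoxifies ammonia upstream in the liver lobule, fell as a group: 17 of 20 were called lower and 0 higher, with a median difference of -0.93. Otc, ornithine transcarbamylase, measured 4.76, 3.86 and 4.80 with CCl4, against 5.99, 6.10 and 6.05 with DEN, a 2.98-fold fall (adjusted p = 1.77e-05). Hal, which breaks down histidine, fell 4.23-fold (adjusted p = 3.03e-05) and Tdo2, which breaks down tryptophan, 3.95-fold (adjusted p = 5.04e-05). CCl4 replicate 2 was the lowest array for Otc, Hal and Tdo2, and the other CCl4 arrays still lay below every DEN array. Under spike-in scaling 11 of the 20 were lower and 0 higher.

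At the other end of the lobule, 8 of 18 pericentral genes were lower and 2 higher, beside 26.2% lower and 21.4% higher of all genes. With slide as a block 11 were lower and 0 higher, and under spike-in scaling 4 were lower and 2 higher. Cyp2e1, which activates CCl4, measured 7.98, 7.23 and 8.15 with CCl4, against 8.28, 8.20 and 8.33 with DEN, and Glul, glutamine synthetase of the innermost hepatocytes, measured 2.61, 2.57 and 2.63 with CCl4, against 2.53, 2.50 and 2.63 with DEN. Neither passed (adjusted p = 0.103 and 0.85), but Cyp2e1 was called lower with slide as a block (-0.66, adjusted p = 0.0489) and without CCl4 replicate 3 (adjusted p = 0.0394). Cyp2e1 arrays did not overlap, because its CCl4 arrays all lay below DEN, whereas Glul arrays overlapped. Of 21 hepatocyte transcription factors 14 were lower and 0 higher. Hnf4a, the main regulator of the hepatocyte state, fell 1.75-fold (adjusted p = 0.000244), and Bcl6, a repressor with sex-dependent expression in liver, fell 8.99-fold (adjusted p = 0.000116), at 0.78, 0.83 and 1.47 with CCl4, against 5.41, 4.22 and 2.94 with DEN. Under spike-in scaling 4 of the 21 were lower and 2 higher.

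Genes that differ between male and female rat livers, which are set by the pattern of growth hormone, included some of the largest falls. Of 21 measured members 13 were lower and 2 higher, with a median difference of -1.42. Cyp2c11, the main P450 of male rat liver, measured 5.38, 1.16 and 6.41 with CCl4, against 8.83, 8.96 and 9.0 with DEN and 9.78, 9.70 and 9.67 in controls, a 24.5-fold fall (adjusted p = 0.00102). CCl4 replicate 2 was lower than the other CCl4 arrays by more than 4 log2 units, and without it the difference was -3.04, against -5.66 with slide as a block. Mup4, a major urinary protein, another probe of which differed by -3.44, measured 1.24, -4.52 and 3.41 with CCl4, against 5.29, 6.22 and 5.55 with DEN, and carbonic anhydrase Car3 1.03, -1.85 and 2.26 with CCl4, against 5.76, 5.52 and 5.61 with DEN. Without CCl4 replicate 2 their differences were -3.36 and -3.99, against -5.65 and -5.15 with it, and 8 of the 21 members were lower, at a median of -0.70. Dhrs7l1, a short-chain dehydrogenase, and Lhx8 shared this spread, at -2.21 and -2.81 without that array, against -3.92 and -3.91 with it.

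Some female-type genes rose. Cyp2c12, the P450 of female rat liver, measured 4.00, 4.06 and 3.88 with CCl4, against 2.98, 3.17 and 2.96 with DEN and 1.12, 1.24 and 1.21 in controls, a 1.92-fold rise over DEN (adjusted p = 0.000324), with both compounds above control. Other members did not follow that order: Sult2a1, a sulfotransferase of female rat liver, fell 7.46-fold (adjusted p = 0.00212), with CCl4 arrays at 1.63, -0.21 and 3.39, against 4.63, 4.61 and 4.27 with DEN. Of 14 measured genes of the growth hormone and IGF axis 3 were lower and 2 higher, at a median of -0.21. Igf1, the secreted mediator of growth hormone, fell 2.55-fold (adjusted p = 0.000149). The growth hormone receptor Ghr fell 1.82-fold (adjusted p = 0.00848, lost under spike-in scaling and with only the 6 arrays fitted). Igfbp2 went the other way, higher by 2.36 to 2.51 over its probes, as did Igf2r, by 0.70 to 1.31 across alternatives.

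**Figure D4:**
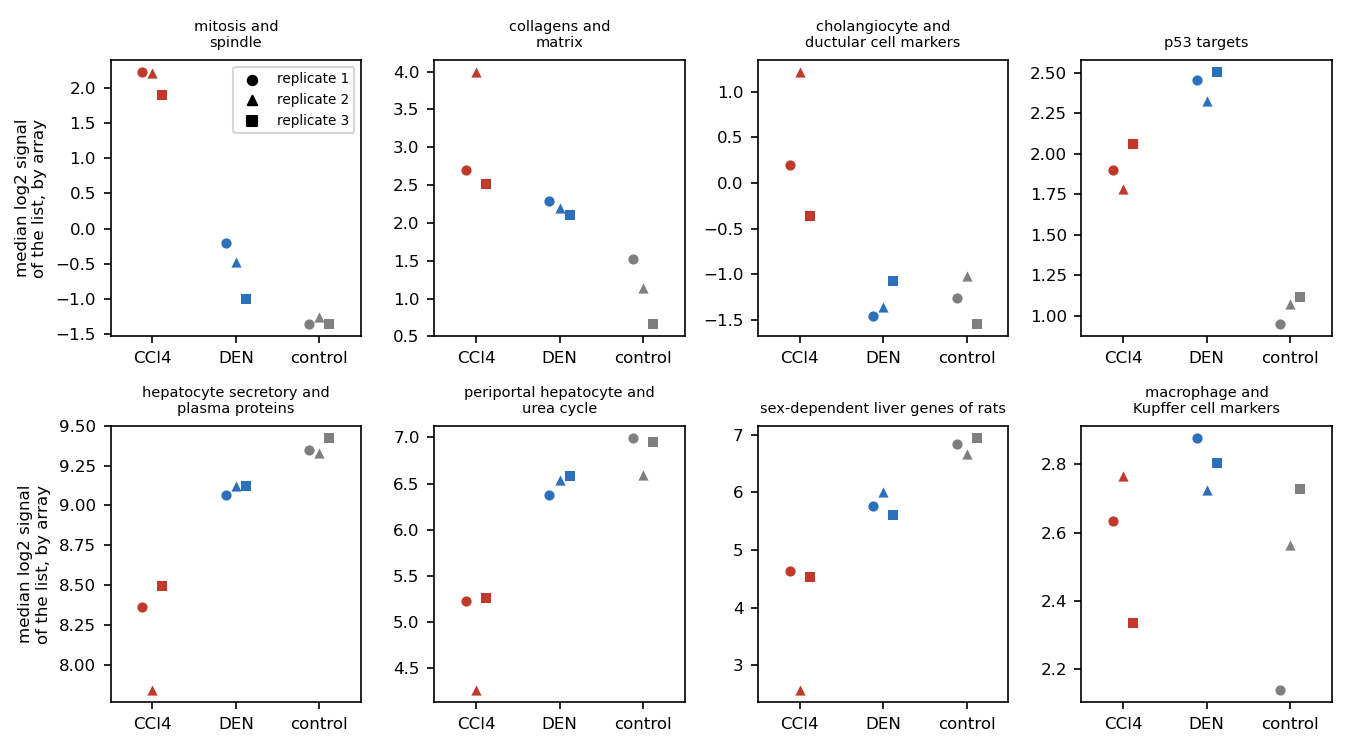
Median log2 signal of the measured members of 8 gene lists (vertical axes), with 1 point per array of day 28 and the marker giving the replicate number. In the mitosis panel CCl4 arrays lie near 2.22, 2.21 and 1.90, against -0.21, -0.47 and -1.0 with DEN, and CCl4 replicate 2 (triangle) is the most extreme CCl4 array in the collagen, ductular, plasma protein, periportal and sex-dependent panels.

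Enzymes that handle foreign compounds were mostly lower with CCl4. Of 29 P450 genes of families that act on drugs 15 were lower and 4 higher, and of 26 conjugation enzymes, which attach sulfate, glucuronide or glutathione, 21 were lower and 1 higher. Gsta3, a glutathione transferase, measured 5.94, 5.58 and 5.82 with CCl4, against 6.85, 6.93 and 6.82 with DEN and 6.29, 5.91 and 6.29 in controls, a 2.12-fold fall (adjusted p = 6.15e-05), with DEN above control, while another of its probes, at 0.88, was not called. Of 19 aldehyde and alcohol enzymes 12 were lower and 1 higher, the exception being Adh4, which rose 2.43-fold (adjusted p = 3.41e-05). Under spike-in scaling 12 of the 26 conjugation enzymes were lower and 2 higher, as were 9 lower and 5 higher of the P450 genes and 8 lower and 2 higher of the aldehyde and alcohol enzymes.

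Targets of NRF2, the sensor of oxidants and electrophiles, had no common direction: of 30 members 10 were higher and 9 lower, with a median of -0.04 that changed sign under quantile and spike-in scaling. Gpx2, a glutathione peroxidase of gut, measured 5.28, 5.91 and 4.89 with CCl4, against 2.26, 1.86 and 2.35 with DEN and 0.03, 0.24 and -0.34 in controls, a 9.21-fold rise (adjusted p = 5.03e-06). Gstp1, the placental glutathione transferase that marks preneoplastic foci in rat liver, measured 5.79, 5.95 and 5.96 with CCl4, against 5.06, 4.91 and 4.99 with DEN, a 1.88-fold rise (adjusted p = 1.81e-05), with controls lower at 4.34, 4.27 and 3.85. Hmox1, heme oxygenase, overlapped at 2.87, 3.28 and 2.52 with CCl4, against 2.98, 2.97 and 2.79 with DEN. Of 22 markers of foci and fetal liver 13 were higher and 1 lower. Among them Anxa2 rose 5.93-fold (adjusted p = 9.06e-06) and the exporter Abcc3 5.14-fold (adjusted p = 5.85e-06), whereas Afp, alpha-fetoprotein, did not pass at 5.62, 5.81 and 5.49 with CCl4, against 5.84, 5.49 and 5.72 with DEN. The multidrug exporter Abcb1b fell 1.98-fold (adjusted p = 0.000471), although CCl4 arrays at 5.21, 5.71 and 4.94 stood far above controls at 0.97, 1.12 and 1.26.

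Targets of PPARα, the receptor that drives fat burning, were called in both directions. Of 30 members 12 were higher and 6 lower, beside 21.4% higher and 26.2% lower of all genes. Under spike-in scaling 20 were higher and 1 lower, beside 4369 higher and 635 lower of all 10307 genes. Acot2, an acyl-CoA thioesterase of mitochondria, measured 3.21, 3.50 and 3.47 with CCl4, against 1.16, 0.99 and 0.97 with DEN, a 5.13-fold rise (adjusted p = 8.03e-09), and Cyp4a1, a fatty acid hydroxylase, rose 3.54-fold (adjusted p = 1.23e-06). Controls of Cyp4a1 at 5.98, 5.91 and 6.19 lay above DEN at 5.68, 5.63 and 5.65 and below CCl4. Cpt1a, which admits fatty acids to mitochondria, did not pass (0.33 ± 0.16, adjusted p = 0.0958), and Ppara itself was among the members called lower, a call lost under spike-in scaling. Of 17 genes of fat synthesis 10 were lower and 0 higher, with Scd, the stearoyl-CoA desaturase, down 4.52-fold (adjusted p = 0.00011) and Fasn, fatty acid synthase, down 3.54-fold (adjusted p = 0.00244). Of 25 cholesterol synthesis genes 9 were lower and 0 higher, beside 26.2% lower and 21.4% higher of all genes. The number lower was 4 without CCl4 replicate 2 and 15 without CCl4 replicate 1. Under spike-in scaling 2 of the 25 were higher and 2 lower, and the median difference was 0.06.

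Of 24 genes of the ATF4 stress response and serine synthesis 11 were higher and 5 lower. Phgdh, the first enzyme of serine synthesis, measured 4.67, 5.29 and 4.33 with CCl4, against 0.55, 0.43 and 0.28 with DEN and -0.60, 0.09 and -0.36 in controls, without overlap. Psat1, the next enzyme of that path, rose 3.01-fold (adjusted p = 0.000161), and Asns, asparagine synthetase, 2.85-fold (adjusted p = 4.63e-06). Atf3 measured 2.25, 2.26 and 2.31 with CCl4, against -1.13, -1.18 and -0.65 with DEN. Chac1, which degrades glutathione, overlapped between the groups (0.16 ± 0.16, adjusted p = 0.447). Of 26 respiratory chain subunits 20 were lower and 1, Cox6a2, higher, at a median of -0.37 that turned to 0.03 under spike-in scaling with 1 subunit lower.

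The same comparison at day 84 used 6 other rats, and 3578 of the 10307 genes were called there (34.7%). Of the genes called at day 28, 1925 were called the same way at day 84, which is 39.2% of the calls at day 28 and 53.8% of those at day 84. The difference itself changed between the days at 2064 genes (20%). Under spike-in scaling it changed at 3766 genes, and 2399 were called at day 84. At day 28 the log2 75th percentile minus the spike-in mean was higher on every CCl4 array than on every DEN array. At day 84 it was -3.98, -4.56 and -4.34 with CCl4, against -4.15, -4.06 and -4.21 with DEN. The list counts that follow use percentile scaling only, and their dependence on scaling was not tested. CCl4 replicates 2 and 3 of day 84 lay on another slide than the rest, so a slide block leaves that comparison to CCl4 replicate 1 alone. Of 29 mitosis genes 19 were higher at day 84 and 1, Mybl2, was lower, at a median of 0.85, while the other 9 were not called, and in 28 the change between days was called. Collagens and matrix genes were higher in 19 of 22 at a median of 1.55, and p53 targets lower in 16 of 26 at a median of -0.61. Plasma protein genes, 31 of 34 lower at day 28, were lower in 2 and higher in 7 at day 84, and the change was called in 30.

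NRF2 targets were mostly lower at day 84. Of 30 members 26 were lower with CCl4 than with DEN at day 84 and 1 higher, at a median of -1.24, and the change was called downward in 21. Gstp1, higher with CCl4 by 0.91 ± 0.11 at day 28, was lower by 3.42 (log2 difference -3.42, adjusted p = 1e-10) at day 84. Aldh3a1, an aldehyde dehydrogenase that marks liver foci, measured -1.91, -1.56 and -1.77 with CCl4, against -1.85, -1.64 and -1.89 with DEN at day 28, groups that overlapped, and differed by -7.09 at day 84. Phgdh, 20.3-fold higher at day 28, differed by -0.53 at day 84 (adjusted p = 0.11). Cox6a2 kept its size, at 6.65 on day 28 and 6.55 on day 84. Cholesterol synthesis genes, with 0 higher at day 28, were higher in 20 of 25 at day 84.

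**Figure D5:**
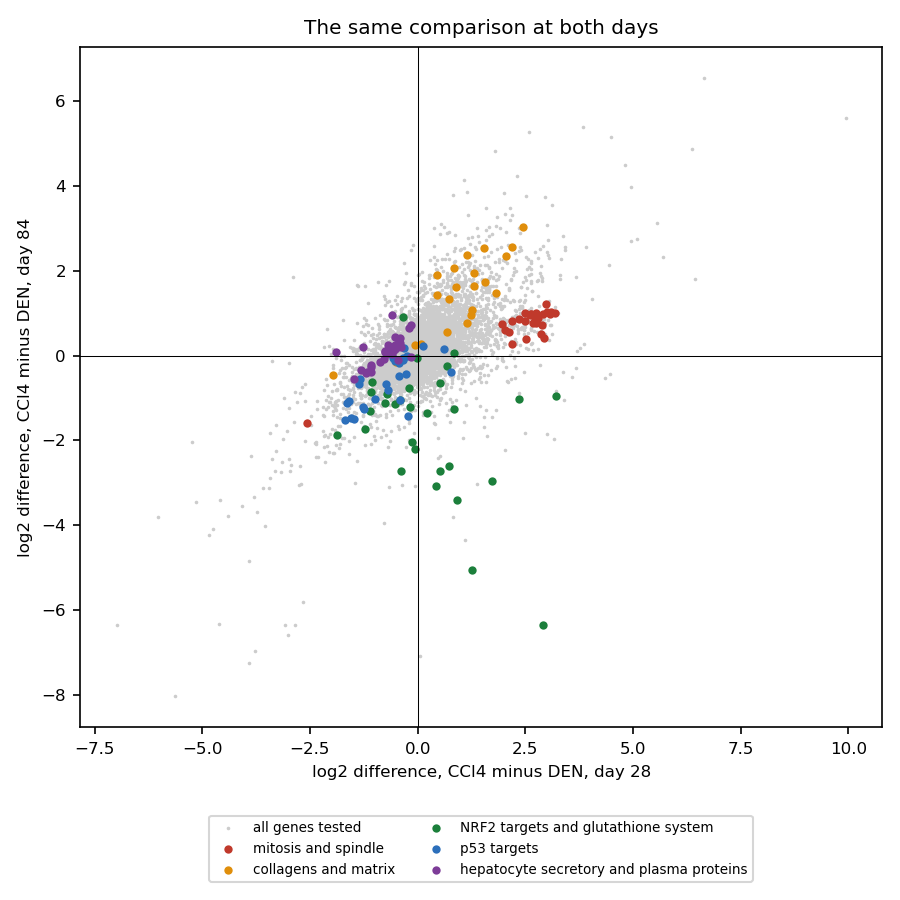
Log2 difference of CCl4 minus DEN at day 28 (horizontal axis) against that at day 84 in other rats (vertical axis) for all 10307 genes tested (grey) and the members of 5 gene lists (colours). Mitosis genes (red) lie to the right at smaller heights, and NRF2 targets (green) reach down to -6.36 at day 84, with a median of -0.04 at day 28.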

How the data were processed

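Total liver RNA of 18 samples, each taken as 1 rat, was measured on Agilent one-colour Cy3 arrays. The deposited scanner files hold spot intensity values and background flags and, per the file headers, came from Agilent Feature Extraction 10.7.1.1. The authors' deposited value table was a ratio of the processed signal to a constant (100% of probes within 0.01 on the log2 scale), with column medians of 0.0852 to 0.0978, and how the constant was chosen is not given in the sources used here. Here, log2 of the deposited processed signal minus the 75th percentile of each array was used. Of 61537 probes after 1439 control spots, 28206 matched 1 RefSeq gene by accession and 33331 did not, and 18 outlier probes were left out. A probe was kept if well above background on all 3 arrays of the CCl4 or the DEN group at day 28, and 17506 such probes gave 10307 genes, 1 probe a gene. Genes were tested with limma 3.58.1 in R 4.3.3 over all 18 arrays in 6 groups (12 residual degrees of freedom), with Benjamini-Hochberg adjustment at 0.05, after the code was tested on simulated data. In 27 genes different probes were called in opposite directions.

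The comparison and the gene lists were chosen with earlier results of these data known. Genes named were the 12 largest rises and falls without overlap, the 6 largest bounds each way, up to 4 called members of each list by adjusted p, the first 2 members of each list, the 4 genes followed up and the 5 largest changes between days each way. Tp53inp1, Phlda3, Bax, Mybl2, Ccnb2, Cdk1, Cdc20, Epcam, Clec4f, Marco, Cd5l, Vsig4, Afp, Cpt1a, Psat1 and Chac1 lie outside that rule and were chosen after their values were seen. Promoters are RefSeq sequences of build GRCr8. Alternatives changed the background correction, filter, scaling, probe choice, arrays, slide and replicate blocks, array weights and value table. P-values measure the spread between these samples.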

Additional observations from a re-analysis of the deposited data

Results flagged for a closer look

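For 10 genes the difference of CCl4 minus DEN itself changed between day 28 and day 84 by limma's interaction test, the 5 largest changes each way. The difference was lower at day 84 by the values that follow, each as day 84 minus day 28 on the log2 scale. Slc7a11, the cystine carrier, changed by -9.26, with a difference of 2.90 at day 28 and -6.36 at day 84. Its call at day 28 was lost with normexp background correction, and its day 28 difference was as low as 0.46 across alternatives. Aldh3a1 changed by -7.13 and Akr1b8, an aldo-keto reductase, by -6.31. Mmd changed by -5.46 and the phosphatase Dusp13b by -5.14. The difference was higher at day 84 for Sult2a1, by 4.75, for Ltc4s, by 3.20, for Slc1a2, a glutamate carrier of pericentral hepatocytes, by 3.07, for the matrix protein Mfap4, by 3.06, and for Sertad4, by 3.02. Day 28 calls were also lost for Mmd in 8 of 21 alternatives, for Mfap4 in 2 of 22 and for Sertad4 with normexp background correction. The days used different rats, and CCl4 arrays lay on more than 1 slide. With slide as a block the day 84 side rests on CCl4 replicate 1 alone, because CCl4 replicates 2 and 3 of day 84 lay on another slide. In that fit all 10 interactions kept their direction, with values such as -9.77 for Slc7a11, 6.18 for Sult2a1 and 2.63 for Mfap4.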

How the results depend on the processing

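Of 229 called genes named by the rule or in the text, 179 kept call and direction under every alternative run. The count of calls at day 28 (4911) was 7863 when every probe was tested, over 17506 probes, and 3807 to 5160 when each array of the comparison was left out in turn. It was lowest, at 3622, when only the 6 arrays were fitted, without the spread of the other groups. In that fit 29% of the 4911 calls were lost, among them those of Mup4, Dhrs7l1 and Ghr. The share of calls higher with CCl4 (45.0%) was 51.6% under quantile normalization, 87.3% under spike-in scaling and 88.4% under spike-in scaling with slide as a block, an alternative chosen after seeing the data. The count of genes whose difference changed between days (2064) was 3766 under spike-in scaling, 3156 over all probes, 3643 with array weights and 1497 with slide as a block. The count at day 84 (3578) was 1955 with slide as a block, 5385 over all probes and 1274 with spike-in scaling and slide block. Differences that turned sign were those of Hp (0.0029 under quantile normalization, 0.053 under spike-in scaling with slide block), Cdkn1a (0.050 under spike-in scaling, but -2.08 with another probe), Tet3 (0.044 under spike-in scaling, 0.011 with slide block added), Cdh1 (0.011) and Hmox1 (0.63), the last 2 under spike-in scaling with slide block. The cause was not tested. Deviations of same-numbered CCl4 and DEN arrays correlated at -0.17, -0.10 and 0.11, so the samples share only a number, and the replicate block gave 4826 calls, 4732 of them shared. Signal over background limits genes dim in one group: only bounds are given where no array of that group was above background, and Trem2, Aox3 and Plcd4, above it on 1 dim array, differed by 4.21, -3.22 and -2.74 with normexp.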
